A study of Mus musculus with 8 samples.

Results

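The nuclear genes for the subunits of respiratory complexes II to V, with cytochrome c, were examined in red gastrocnemius muscle of wild type mice and of mice homozygous for a mutant Pus1 gene. They were taken from a list of 44 genes, 4 of complex II, 10 of complex III and cytochrome c together, 14 of complex IV and 16 of complex V including its inhibitor. All 44 were named on the arrays, by 69 probes matched through their accessions, and all 44 were among the 11453 genes tested. The wild type group was 4 mice and the mutant group 4 mice, labelled as biological replicates, each group with 2 males and 2 females aged 14 to 16 weeks. Both groups were C57BL/6J after 5 generations of backcrossing, and the labels list no treatment. The labels leave the nature of the Pus1 mutation unstated. Each of 4 arrays held 1 wild type and 1 mutant mouse of the same sex and individual number, males on arrays 1 and 2 and females on arrays 3 and 4. The mutant carried the red dye Cy5 on arrays 1 and 3 and the green dye Cy3 on arrays 2 and 4.

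Pus1 encodes a pseudouridine synthase that modifies uridines in cytosolic and mitochondrial tRNAs. Complex II passes electrons from succinate to ubiquinone, complex III passes them on to cytochrome c, and complex IV, cytochrome c oxidase, passes them to oxygen. Complex V is the ATP synthase, which uses the resulting proton gradient. Complexes III, IV and V combine nuclear subunits with a few made from mitochondrial DNA, whereas complex II is wholly nuclear encoded, and red muscle fibres are rich in all of them. In the heart and skeletal muscle of mammals, some subunits of complex IV exist as a muscle form and a more widely expressed form.

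The array measured labelled cRNA, and a change is given below as the log2 ratio of mutant over wild type, with the standard error (SE) of a limma fit over the 4 arrays that also held a dye term. Levels are log2 brightness per sample after normalization and can be compared between samples for 1 gene, not between genes. They keep each gene's dye effect, so Cy5 and Cy3 samples of a gene also differ by it, and overlaps of levels hold it too. Between 39.7% and 47.3% of the probes were well above background in each sample. The subunit genes were all well above background in 8 of 8 samples and saturated in none. They were among the brightest genes, with a median percentile of 98.7, and 43 of 44 lay in the top 10% of brightness. The 7 skeletal muscle markers and the 9 slow fibre markers examined were well above background in every sample. The 1 Pus1 probe stood at a mean level of 8.74 in wild type and was not well above background in any mutant, where it measured 6.83, so only a bound can be given, at least 3.57-fold lower (limma adjusted p = 0.0454).

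Promoters are shown for 5 members, chosen to give the motifs found in the group and both kinds of complex IV isoform. RefSeq windows of 300 bases, from 250 before to 50 after the transcript start (build GRCm38.p6), were held for 35 of the 44 genes. Windows were searched on both strands for the sites of 4 factors. They were GCGCANGCG for nuclear respiratory factor 1 (NRF-1), TCAAGGTCA for the oestrogen-related receptors (ERR), CCGGAAG for the ETS family, to which GABP (NRF-2) belongs, and CAGCTG, an E-box bound by MyoD. The NRF-1 motif was in 14 of 35 members (40.0%), against 7.03% of 27025 genes in the reference table and 15.0% of the 9137 tested genes with a window. The ETS motif was in 12 members (34.3%), against 9.93% and 19.7%. The ERR motif was in 2 members (5.71%), against 0.466% and 0.339%. The E-box was in 3 members (8.57%), against 18.3% and 18.1%. By complex, 2 members of complex II, 2 of complex III, 1 of complex IV and 8 of complex V held an NRF-1 motif, as did Cycs. A match is a run of letters and not a measured site. The 250 bases before the start are printed below 5′ to 3′ on the gene's strand, the minus strand in each case, with motif matches in capitals. Cycs (chr6:50566570-50566819) has an NRF-1 match that begins 61 bases before the start. Sdhd (chr9:50603850-50604099) has an NRF-1 match at 79 bases and an ETS match at 46 bases before the start. Its searched window also holds an ERR match that is not wholly within the printed bases. Atp5g3 (chr2:73911327-73911576) has an ERR match at 52 bases, and its window holds an NRF-1 match not wholly within the printed bases. Cox6a1 (chr5:115348959-115349208), the widely expressed isoform, has overlapping NRF-1 matches at 162 and 161 bases, another at 117 bases and an ETS match at 16 bases. Cox8b (chr7:140900447-140900696), a muscle isoform, has an E-box at 19 bases and none of the other 3 motifs. Its searched window holds a further E-box that is not wholly within the printed bases. These examples do not set muscle isoforms apart from widely expressed ones. Cox7a1, a muscle form, and Cox7a2, a widely expressed form, held none of the 4 motifs. Cox8a, widely expressed, held the ETS motif, and the E-box was also in Atp5b and Atpif1.
Cycs: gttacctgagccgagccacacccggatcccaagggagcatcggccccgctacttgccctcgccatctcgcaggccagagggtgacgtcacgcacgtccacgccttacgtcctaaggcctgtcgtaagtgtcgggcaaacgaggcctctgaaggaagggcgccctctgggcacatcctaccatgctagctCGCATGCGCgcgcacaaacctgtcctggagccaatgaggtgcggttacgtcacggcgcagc
Sdhd: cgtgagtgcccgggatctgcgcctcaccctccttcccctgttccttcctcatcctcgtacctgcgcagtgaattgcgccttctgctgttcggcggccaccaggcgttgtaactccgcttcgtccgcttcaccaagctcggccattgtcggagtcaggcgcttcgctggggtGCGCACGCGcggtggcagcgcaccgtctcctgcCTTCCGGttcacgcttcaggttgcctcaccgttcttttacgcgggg
Atp5g3: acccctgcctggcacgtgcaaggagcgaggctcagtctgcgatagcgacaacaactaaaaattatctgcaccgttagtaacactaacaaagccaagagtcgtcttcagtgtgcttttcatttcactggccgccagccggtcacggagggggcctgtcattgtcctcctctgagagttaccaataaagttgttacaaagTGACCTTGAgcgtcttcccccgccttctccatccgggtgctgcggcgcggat
Cox6a1: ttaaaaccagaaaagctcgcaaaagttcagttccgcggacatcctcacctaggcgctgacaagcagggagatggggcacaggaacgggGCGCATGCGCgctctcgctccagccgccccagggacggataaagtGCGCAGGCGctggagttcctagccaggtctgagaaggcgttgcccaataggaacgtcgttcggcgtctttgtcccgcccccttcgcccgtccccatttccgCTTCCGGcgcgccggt
Cox8b: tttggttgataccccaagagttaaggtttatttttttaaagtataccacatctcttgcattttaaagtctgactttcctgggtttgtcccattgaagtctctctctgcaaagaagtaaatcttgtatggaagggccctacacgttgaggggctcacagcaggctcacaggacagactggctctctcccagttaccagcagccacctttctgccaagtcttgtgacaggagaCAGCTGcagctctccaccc

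No subunit gene of complexes II to V passed the genotype test. Of the 44, 0 had a limma adjusted p under 0.05, against 2 of 11453 genes (0.0175%). At an unadjusted p under 0.05 there were also 0 subunit genes, against 2.46% of all genes with lower and 3.41% with higher values in mutants. Their log2 changes lay between -0.17 for Sdhb and 0.11 for Cox7a1, that is between 0.891 and 1.08 times the wild type level. The 95% intervals, each for 1 gene and not adjusted for the number of genes, all lay within 0.5 either side of 0. Together they ran from -0.43 to 0.36. The median SE was 0.0762, against 0.0807 over all genes tested. In no subunit gene did all 4 mutants lie below, or all above, the 4 wild types, where 0.541% and 0.672% of all genes did so. These counts rest on levels that keep the dye effect, which widens the spread within each genotype.

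The direction of these small differences was uneven. The change was below 0 in 33 of 44 subunit genes (75.0%), against 45.8% of all genes tested. It was below 0 in 20 of 44 without pair 2 and in 14 of 44 with the authors' deposited value table. The share of all genes below 0 was not counted under those settings, and the median of all genes moved too. The median change was -0.040, against 0.012 over all genes tested. It became 0.0034 without pair 2 (all genes 0.0055) and -0.093 without pair 4 (all genes 0.015). With the authors' table it was 0.033 (all genes 0.063), and the medians by complex with that table are to be read beside the same all-gene value. Few single genes held 1 direction on every array. The raw ratio was below 0 on 4 of 4 arrays in 2 members, Uqcr11 and Atp5e (4.55%), against 3.94% of all genes. It was above 0 on 4 of 4 arrays in 0 members, against 6.5% of all genes. With the dye term taken off each ratio, 8 members were below 0 on 4 of 4 arrays (18.2%), against 10.3% of all genes. They were Sdhb, Sdhd, Uqcr10, Cycs, Cox5b, Cox7a2, Atp5g3 and Atp5l. In the same sense 1 member, Sdhc, was above 0 on 4 of 4 arrays, against 14.9% of all genes. The 44 genes share arrays and are not replicates, so these counts are descriptions.

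**Figure D1:**
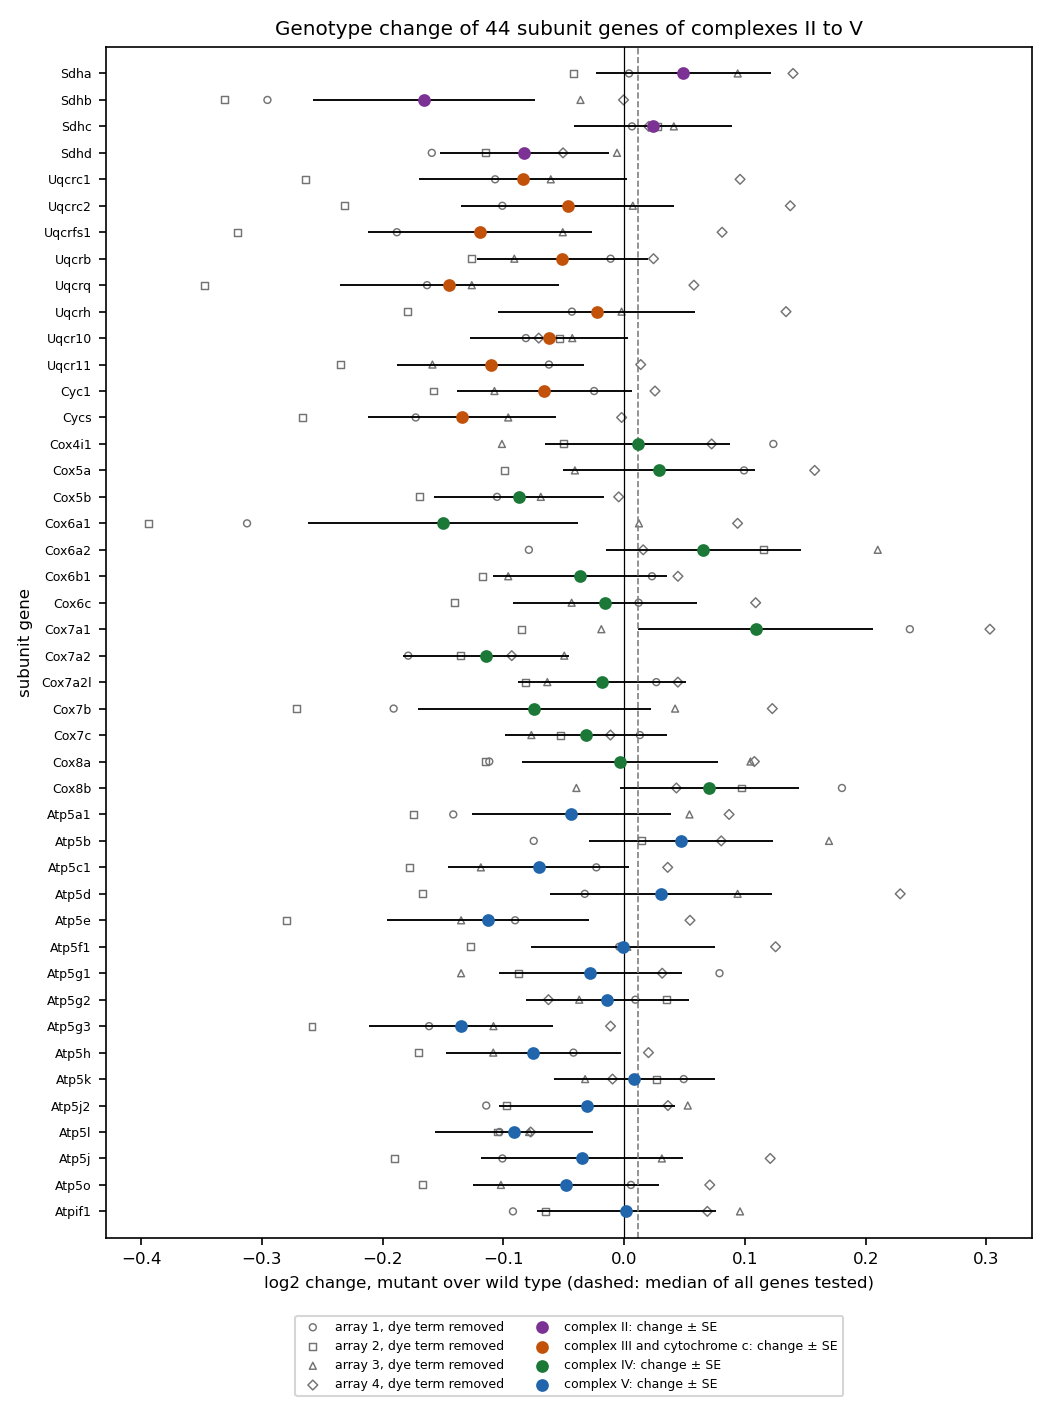
Log2 change of each of the 44 subunit genes (filled points, coloured by complex) with its SE, and the ratio on each of the 4 arrays with the dye term removed (open symbols), in log2 units. The changes run from -0.17 to 0.11, and 33 of 44 lie below 0, while the dashed line marks the median of all genes tested, 0.012.

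The raw ratios of these genes followed the dye of the mutant. The median ratio over the 44 was 0.089 on array 1 and 0.13 on array 3, where mutants carried Cy5, and -0.27 on array 2 and -0.062 on array 4, where they carried Cy3. The ratio was below 0 in 18, 40, 13 and 28 of the 44 on arrays 1 to 4, against 45.6%, 48.1%, 47.5% and 51.5% of all genes tested. The dye term, Cy5 minus Cy3 at equal genotype, was above 0 in 34 of 44 (77.3%), against 53.7% of all genes, with a median of 0.13. At an unadjusted p under 0.05 it was above 0 in 20 of 44 (45.5%), against 11.6% of all genes, and below 0 in 0, against 9.38%. After adjustment the limma fit called the dye term in 0% of the 11453 genes. By complex the median dye term was -0.040 for complex II, 0.20 for complex III with cytochrome c, 0.068 for complex IV and 0.23 for complex V. It was 0.29 over the 7 skeletal muscle markers and 0.30 over the 9 fast fibre markers. Over 37 nuclear subunits of complex I the median dye term was 0.13, and it was above 0 in 30. Each genotype held 2 samples of each dye and each sex both orientations, so the genotype change is an average over both dyes. With the dye term removed, the median over the 44 was -0.069, -0.13, -0.042 and 0.045 on arrays 1 to 4.

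**Figure D2:**
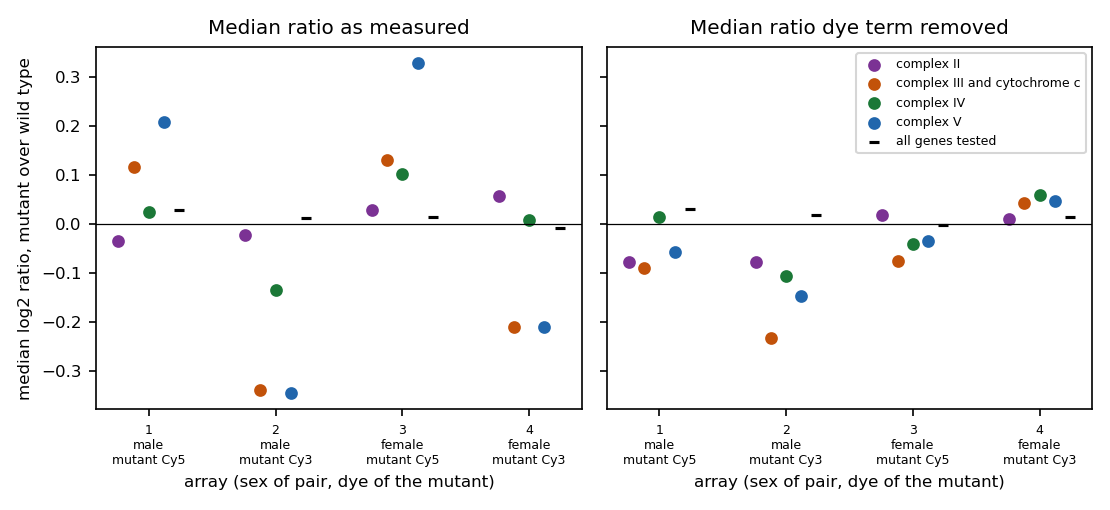
Median log2 ratio of mutant over wild type on each array for each complex (points) and for all genes tested (dashes), as measured at left and with each gene's dye term removed at right. Complex V runs from -0.35 to 0.33 as measured, following the dye of the mutant, and from -0.15 to 0.045 with the dye term removed.

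Complex II had a median change of -0.029, with 2 of 4 genes below 0, and the median turned to 0.032 with the authors' table and to 0.0062 in the female pairs. Sdhb, the iron-sulfur subunit that carries electrons from the flavoprotein towards ubiquinone, had the lowest change of all 44 genes. Its levels were 17.17, 17.41, 16.99 and 17.20 across wild types 1 to 4, against 17.16, 16.79, 17.24 and 16.92 across mutants 1 to 4. Mutant 2 was lowest and wild type 2 highest, and the groups overlapped. The change was -0.17 ± 0.092 (limma adjusted p = 0.707, 95% interval -0.40 to 0.068), with ratios of -0.010, -0.62, 0.25 and -0.29 on arrays 1 to 4. Another, dimmer kept probe of Sdhb gave a similar change, -0.14, but ratios of -0.31, -0.13, -0.31 and 0.19. The order of the arrays thus differed between the probes. Sdhd, which with Sdhc anchors the complex in the inner membrane, had levels of 15.63, 15.78, 15.84 and 15.52 across wild types 1 to 4, against 15.38, 15.76, 15.74 and 15.55 across mutants 1 to 4. Mutant 1 was the lowest sample, and the other 3 mutants lay within the range of the wild types. Its change was -0.083 ± 0.070 (adjusted p = 0.778). Sdha, the flavoprotein that oxidises succinate, had levels of 15.19, 15.03, 14.99 and 14.97 across wild types 1 to 4, against 15.17, 15.01, 15.06 and 15.14 across mutants 1 to 4. They spanned little and overlapped, with a change of 0.049 ± 0.072, the highest of the complex (adjusted p = 0.882). Sdhc, the other anchor, was nearest to 0 at 0.024 ± 0.066, with all 8 samples between 14.26 and 14.51.

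Complex III and cytochrome c were the group in which all 10 genes had a change below 0, with a median of -0.075, which turned to 0.012 with the authors' table. The median was -0.020 without pair 2 and -0.16 without pair 4. Uqcrq, a small structural subunit, had the lowest change of the group. Its levels were 17.34, 17.69, 17.23 and 17.34 across wild types 1 to 4, against 17.47, 17.05, 17.40 and 17.11 across mutants 1 to 4. Mutant 2 was lowest and wild type 2 highest, both on array 2, and the groups overlapped. The change was -0.14 ± 0.091 (limma adjusted p = 0.714), with ratios of 0.13, -0.64, 0.17 and -0.24. Cycs, somatic cytochrome c, the mobile carrier between complexes III and IV, had levels of 15.92, 16.22, 15.82 and 16.08 across wild types 1 to 4, against 16.08, 15.62, 16.06 and 15.75 across mutants 1 to 4. Mutants 2 and 4, both labelled with Cy3, lay below every wild type, while mutants 1 and 3 lay among them. The change was -0.13 ± 0.078 (adjusted p = 0.708, 95% interval -0.33 to 0.064).

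Uqcrh, the hinge protein that helps cytochrome c1 meet cytochrome c, had the change nearest to 0 in this group and the ratio that varied most between arrays of all 44 genes. Its levels were 16.19, 16.95, 16.08 and 16.68 across wild types 1 to 4, against 16.99, 15.92, 16.92 and 15.97 across mutants 1 to 4. The 4 samples labelled with Cy5 were high and the 4 labelled with Cy3 low, whatever the genotype. Its ratios were 0.80, -1.03, 0.84 and -0.71, an SD of 0.99, with a dye term of 0.85 and a genotype change of -0.023 ± 0.082 (adjusted p = 0.953). The catalytic subunits gave -0.066 for Cyc1, cytochrome c1, and -0.12 for Uqcrfs1, the Rieske iron-sulfur protein. The core proteins Uqcrc1 and Uqcrc2 gave -0.084 and -0.047. Among the small subunits, Uqcrb gave -0.051, Uqcr10 -0.062 and Uqcr11 -0.11. For Uqcrb the kept probes disagreed in sign, at -0.051, 0.036 and -0.0019.

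Complex IV had a median change of -0.017, with 9 of 14 genes below 0, and the median turned to 0.046 with the authors' table, 0.032 without pair 2 and 0.017 in the female pairs. The 14 are all accessory subunits, since the catalytic core is made from mitochondrial DNA. Cox4i1, the subunit through which ATP regulates the enzyme, gave 0.011, and its neighbours Cox5a and Cox5b gave 0.029 and -0.087. Cox6b1, which lies at the contact of the dimer, gave -0.036, and the small membrane subunits Cox6c, Cox7b and Cox7c gave -0.016, -0.074 and -0.032. Cox7a2l is a relative of Cox7a that has been linked to supercomplexes of complexes III and IV, which were not measured here. Its levels were 15.17, 14.98, 15.15 and 14.93 across wild types 1 to 4, against 15.07, 15.02, 14.96 and 15.10 across mutants 1 to 4. All 4 mutants lay within the range of the wild types. Its change was -0.018 ± 0.070 (limma adjusted p = 0.954).

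In each of the 3 isoform pairs of complex IV the muscle form had the higher change. The amounts did not exceed the SD of the raw differences between arrays, and for Cox8b the order turned without pair 1. These differences were taken from raw ratios, so their spread and tests also hold dye effects, which were unlike within pairs. The dye term was 0.065 for Cox6a2 and 0.13 for Cox6a1, and 0.14 for Cox7a1 and 0.36 for Cox7a2. It was 0.22 for Cox8b and 0.027 for Cox8a. The spread with the dye terms removed was not computed. Cox6a2, the muscle form of subunit 6a, had levels of 18.02, 18.10, 18.00 and 18.10 across wild types 1 to 4, against 18.01, 18.15, 18.27 and 18.05 across mutants 1 to 4. Mutant 3 was highest and the other 7 samples lay close together. Cox6a1, its widely expressed partner, had levels of 14.26, 14.54, 14.31 and 14.08 across wild types 1 to 4, against 14.07, 14.02, 14.46 and 14.05 across mutants 1 to 4. Mutants 1, 2 and 4 lay at or below the lowest wild type, and mutant 3 stood apart among the higher wild types. The changes were 0.066 ± 0.081 for Cox6a2 (limma adjusted p = 0.855) and -0.15 ± 0.11 for Cox6a1 (adjusted p = 0.751). The difference between their ratios, Cox6a2 minus Cox6a1, was 0.17, 0.57, 0.13 and -0.012 on arrays 1 to 4, with a mean of 0.22 ± 0.13 (SE, n = 4 arrays; exact 2-sided sign-flip permutation p = 0.250, 0.375 adjusted over the 3 pairs). The mean was 0.096 without pair 2. Cox6a1 lies within 20 Mb of Pus1 on chromosome 5, as does Atp5k of complex V, whose change was 0.0085.

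Cox7a1, the muscle form of subunit 7a, had levels of 16.89, 17.39, 16.78 and 16.65 across wild types 1 to 4, against 17.27, 17.16, 16.91 and 16.81 across mutants 1 to 4. The males were high in both genotypes except wild type 1, which stood among the females, and the groups overlapped. Its change was 0.11 ± 0.097, the highest of the 44 genes (limma adjusted p = 0.791). Cox7a2, the widely expressed form, had levels of 14.95, 15.16, 14.93 and 15.12 across wild types 1 to 4, against 15.13, 14.66, 15.24 and 14.66 across mutants 1 to 4. Mutants 2 and 4, labelled with Cy3, were the lowest samples and mutant 3 the highest. Its change was -0.11 ± 0.069, with the smallest p of complex IV (adjusted p = 0.711). The difference Cox7a1 minus Cox7a2 was 0.20, 0.27, -0.19 and 0.62 on arrays 1 to 4, with a mean of 0.22 ± 0.17 (SE, n = 4 arrays; exact permutation p = 0.250, adjusted 0.375), and it was 0.092 without pair 4.

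Cox8b, the muscle form of subunit 8, had levels of 17.28, 17.69, 17.54 and 17.13 across wild types 1 to 4, against 17.68, 17.57, 17.72 and 16.95 across mutants 1 to 4. Wild type 4 and mutant 4, hybridised together, were the lowest of the 8 samples. Cox8a, the widely expressed form, had levels of 14.40, 14.49, 14.45 and 14.39 across wild types 1 to 4, against 14.32, 14.35, 14.58 and 14.47 across mutants 1 to 4. All 8 samples lay close together. The changes were 0.070 ± 0.074 for Cox8b (limma adjusted p = 0.827) and -0.0035 ± 0.081 for Cox8a (adjusted p = 0.992). The difference Cox8b minus Cox8a was 0.49, 0.019, 0.049 and -0.26 on arrays 1 to 4, with a mean of 0.074 ± 0.15 (SE, n = 4 arrays; exact permutation p = 0.625, adjusted 0.625), and the mean turned to -0.063 without pair 1 and -0.10 in the female pairs. Each of the 3 raw differences, with dye effects not removed, was above 0 on 3 of 4 arrays. With 4 arrays no exact 2-sided p below 1 in 8 is possible.

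**Figure D3:**
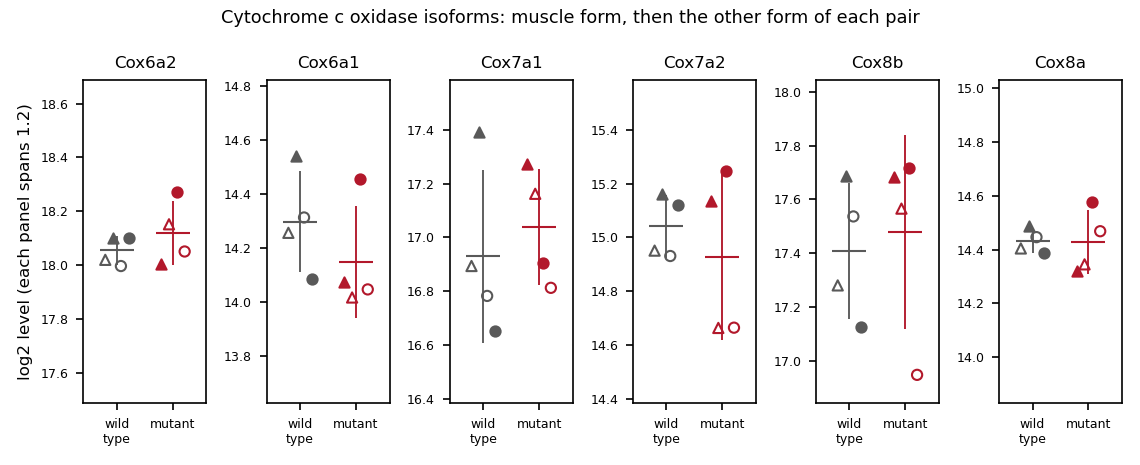
Log2 level of the 3 muscle isoforms of complex IV, each followed by its widely expressed partner, in each sample (grey wild type, red mutant, triangles males, circles females, filled Cy5, open Cy3), with the mean and SD of 4 samples. Each panel has its own range of equal height, and the genotypes overlap in all 6 panels, at levels that keep the dye effect.

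Complex V had a median change of -0.033, with 12 of 16 genes below 0, and the median turned to 0.050 with the authors' table and to 0.0023 without pair 2. The catalytic head gave -0.044 for Atp5a1, the alpha subunit, and 0.047 for Atp5b, the catalytic beta subunit. Atp5b had the highest change of the complex. Its levels were 17.86, 17.93, 17.82 and 18.18 across wild types 1 to 4, against 18.13, 17.59, 18.34 and 17.91 across mutants 1 to 4. Mutant 2 was lowest and mutant 3 highest, and the mutants spanned more than the wild types. The change was 0.047 ± 0.076 (limma adjusted p = 0.892). In the central stalk, which turns within the head, Atp5c1 (gamma) gave -0.071, Atp5d (delta) 0.031 and Atp5e (epsilon) -0.11. Atp5e had ratios of -0.017, -0.35, -0.061 and -0.019 on arrays 1 to 4, below 0 on each but close to 0 on 3.

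The membrane ring of subunit c is encoded by 3 genes whose mature proteins are the same. Atp5g3 had the lowest change of the complex. Its levels were 16.56, 17.56, 16.89 and 17.42 across wild types 1 to 4, against 16.95, 16.75, 17.33 and 16.86 across mutants 1 to 4. Wild types 2 and 4, labelled with Cy5, were high and wild type 1 low, and the groups overlapped. The change was -0.13 ± 0.076 (limma adjusted p = 0.707, 95% interval -0.33 to 0.059), beside a dye term of 0.55. Atp5g1 and Atp5g2 gave -0.028 and -0.014, and the dye term of Atp5g1 was 0.59.

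Atp5l, subunit g of the membrane part, which takes part in joining ATP synthase into dimers, had levels of 17.15, 17.16, 16.98 and 16.94 across wild types 1 to 4, against 17.16, 16.94, 17.01 and 16.75 across mutants 1 to 4. Mutant 4 was the lowest sample and the other 3 mutants lay within or at the range of the wild types. Its change was -0.091 ± 0.066 (limma adjusted p = 0.745), and 5 of 5 probes lay between -0.15 and -0.087. The other membrane subunits Atp5k (e) and Atp5j2 (f) gave 0.0085 and -0.031. In the peripheral stalk, which holds the head still, Atp5f1 (b) gave -0.00073, Atp5h (d) -0.075, Atp5j (F6) -0.035 and Atp5o (the oligomycin sensitivity subunit) -0.048. The kept probes of Atp5h and Atp5k disagreed in sign, at -0.075 and 0.018 and at -0.035 and 0.0085. Atpif1, the inhibitor that stops the enzyme from hydrolysing ATP, had levels of 12.82, 13.02, 12.79 and 13.05 across wild types 1 to 4, against 12.94, 12.74, 13.10 and 12.92 across mutants 1 to 4. The samples of both genotypes covered nearly the same range, and the change was 0.0020 ± 0.074 (adjusted p = 0.995).

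The genotype change was lower in the male than in the female pairs for most subunit genes, but none passed the test of that difference. The mean ratio of the 2 male pairs was below 0 in 36 of 44 (81.8%), against 43.3% of all genes tested. That of the 2 female pairs was below 0 in 23 of 44 (52.3%), against 48.4% of all genes. The lean was not particular to these genes: of 37 nuclear subunits of complex I, 32 were below 0 in male and 23 in female pairs. The male minus female difference was below 0 in 38 of 44 (86.4%), against 45.4% of all genes, and ran from -0.41 to 0.14. Of the 44, 0 passed the genotype by sex term at a limma adjusted p under 0.05, against 3.89% of all genes, and 1 had an unadjusted p under 0.05 (2.27%), against 12.7%. That gene was Cox6a1, with mean ratios of -0.35 in the male and 0.053 in the female pairs, a difference of -0.41 ± 0.15 (SE, limma adjusted p = 0.289). The next differences in size were those of Cox7b, with -0.23 in the male and 0.082 in the female pairs, and Sdhb, with -0.31 in the male and -0.018 in the female pairs. The medians by complex, male then female, were -0.078 and 0.0062 for complex II and -0.16 and -0.034 for complex III with cytochrome c. They were -0.037 and 0.017 for complex IV and -0.10 and -0.018 for complex V. Each sex rests on 2 pairs, and the term had 1 residual degree of freedom. The 7 erythroid markers tested had median changes of 0.011 in the male and 1.68 in the female pairs, and 6 of them passed the sex term, and the 9 slow fibre markers had 0.10 and 0.48. Their part in the sex difference of the subunit genes was not tested.

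**Figure D4:**
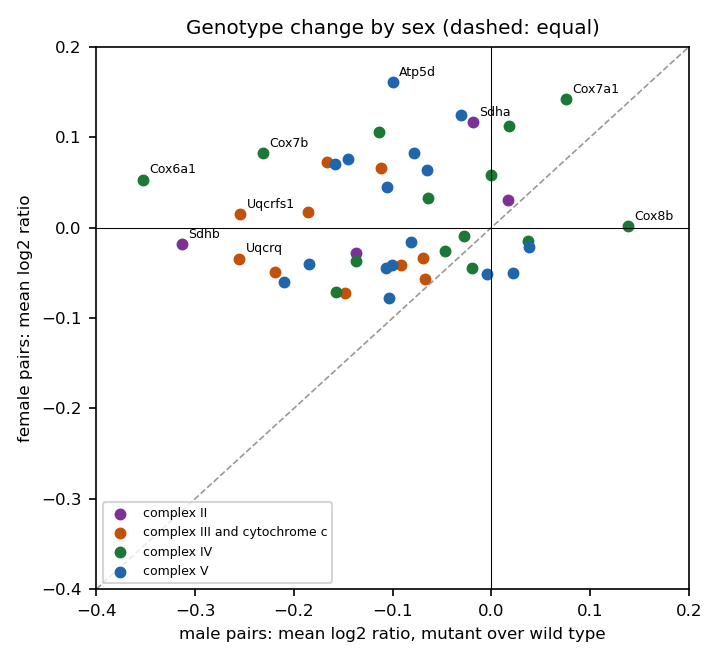
Mean log2 ratio of mutant over wild type in the 2 female pairs (vertical) against the 2 male pairs (horizontal) for each of the 44 subunit genes, coloured by complex, with equal values on the dashed line. Of the 44 points, 38 lie above the line, and Cox6a1 lies farthest from it.

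Other genes of respiration were set beside these without passing the test either. Complex I, the entry point for electrons from NADH, had 29 of 37 nuclear subunits below 0, a median of -0.049 and 0 called by limma, with 1 at an unadjusted p under 0.05. Its smallest p-values were those of Ndufb5 at -0.17 ± 0.066 and Ndufb10 at -0.15 (SE, limma adjusted p = 0.707 for Ndufb5). Of 36 assembly factors of complexes II to V, 32 were tested, 23 were below 0, the median was -0.049 and 0 were called, with 3 at an unadjusted p under 0.05. Cox18, an insertase needed to place a core subunit of complex IV in the membrane, stood apart at 0.76 ± 0.11 (limma adjusted p = 0.546), and its gene lies on chromosome 5, as Pus1 does, but more than 20 Mb from it. Its levels were 9.98, 10.21, 10.17 and 10.21 across wild types 1 to 4, against 10.87, 10.71, 10.84 and 11.20 across mutants 1 to 4. Each mutant lay above each wild type. Cox14, another complex IV assembly factor, gave -0.21. Of 15 regulators of respiratory genes, 9 were below 0 with a median of -0.016, and Gabpb1, a subunit of GABP, gave 0.15 ± 0.068. Of 15 further isoforms and accessory genes, 6 were tested with a median of -0.052, among them Chchd10 at 0.16 ± 0.070 and Atp5md, a small ATP synthase subunit, at -0.15 ± 0.071. The subunits encoded by mitochondrial DNA were not analysed here.

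Markers of fibre types and of other cells varied between samples. In bulk muscle, fewer cells of a type and less RNA per cell cannot be told apart. The mean level of the 9 slow fibre markers was 14.20 to 15.03 in wild types and 14.46 to 15.44 in mutants, with 8 of 9 changes above 0 and a median of 0.25. At an unadjusted p under 0.05, 4 of these 9 were higher in mutants, against 3.41% of all genes. That of the 9 fast fibre markers was 16.91 to 17.44 and 16.94 to 17.52, with 8 of 9 above 0 and a median of 0.094. The 7 erythroid markers tested, of 8, stood at 11.81 to 13.31 in wild types and 12.22 to 14.99 in mutants, with a median change of 0.88. Of 7 adipocyte markers, 4 were tested and stood at 9.67 to 11.24 and 10.11 to 11.36, with a median change of 0.16. The macrophage, endothelial, fibroblast and Schwann cell markers had median changes of -0.056, -0.026, -0.023 and 0.15. Their part in the values of the subunit genes was not tested, and 0 markers passed the genotype test. At an unadjusted p under 0.05, 2 erythroid markers and 1 adipocyte marker were also higher, and 1 macrophage and 1 fibroblast marker lower.

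**Figure D5:**
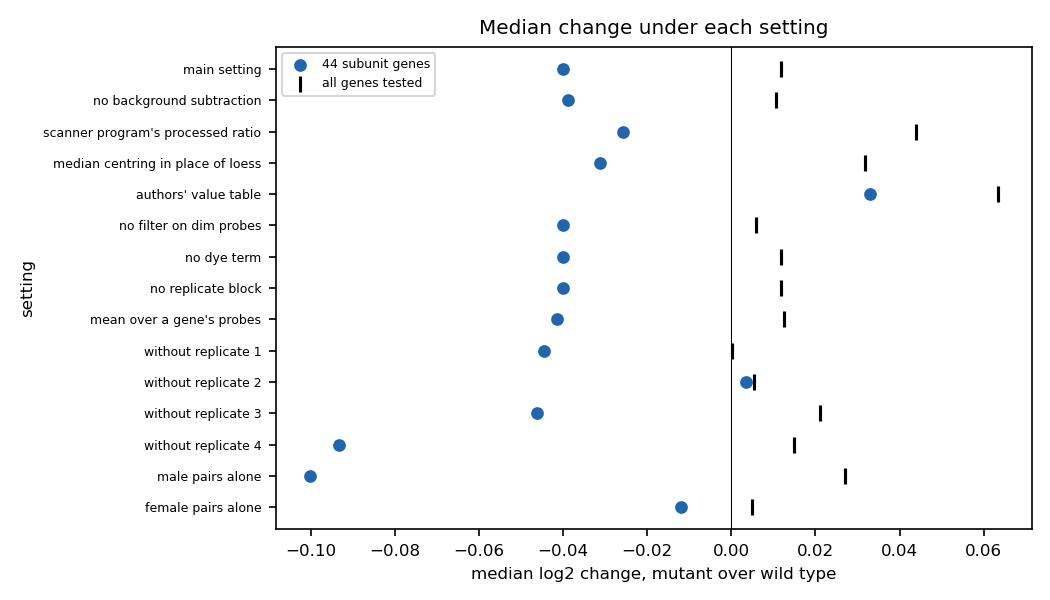
Median log2 change of the 44 subunit genes (points) and of all genes tested (bars) under each processing setting and with each array pair left out. The subunit median lies between -0.10 for the male pairs alone and 0.033 with the authors' table. It is below the median of all genes under each of the 15 settings shown, but without pair 2 the gap is only -0.0021. The settings with no dye term, no replicate block and no filter leave the subunit median at the main value of -0.040, so they add no separate support.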

How the data were processed

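The deposited scanner files hold spot and local background intensity as medians on a linear scale for each dye, per the file headers. They were made with Agilent Feature Extraction 10.7.3.1, per the submitters' processing notes, on 1 slide with a probe design on build mm9. The files' own ratio is on the log10 scale, Cy5 over Cy3, per the file headers, and was an alternative. Log2 values, with each probe centred on its median over the 8 samples, make up the table the authors deposited, and how they were made is not given in the sources used here. Its direction was taken from the correlation of its mutant minus wild type differences with the scanner ratios (r = 0.98 to 0.989), and the scale from their slopes on the log2 form of those ratios (0.979 to 1.03). The centring was read from the row medians, at most 9.55e-07 in size. Its column medians were -0.0347, -0.0624, 0.0127 and 0.0036 for the 4 wild types and -0.0016, 0.0067, 0.0045 and 0.019 for the 4 mutants. Flags of 0 or 1 for background, saturation and outliers are those of the scanner program, per the file headers.

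Intensities were corrected by normexp (offset 50) and ratios normalized by loess within arrays in limma 3.58.1 (R 4.3.3), with control and outlier spots at weight 0. Median signals took the place of the planned spot signals. Probes well above background (over at least 50% of spots) in all samples of a genotype were kept, and the brightest named probe stood for its gene. Accessions were matched to a RefSeq table of GRCm38.p6 for names, chromosomes and nearness to Pus1. Per-sample levels came from the same ratios after quantile scaling of the average brightness. The genotype change was fitted with lmFit and eBayes on 4 ratios with a dye term (2 residual degrees of freedom, prior 3.22), 2-sided, with Benjamini-Hochberg adjustment over 11453 genes at a threshold of 0.05. The array is the pair: within each pair, the departures of both samples from their group means correlated at r = 0.38, 0.25, 0.12 and 0.50 across all genes, though at 0.042, -0.20, -0.38 and -0.0060 across the 44 subunit genes. Isoform differences, taken from raw ratios with no dye term, had an exact sign-flip permutation test over arrays.

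The members, gene lists and rules for naming genes were chosen with earlier results of these data known. Full values are given for the 2 smallest p-values and the extremes of each complex, the 6 tissue isoforms, the most variable ratio, Cycs, Cox7a2l and Atpif1. The number of arrays limits the precision. Alternatives covered background correction, normalization, the filter, the dye term, the block, the probe rule and each pair or sex left out.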

Additional observations from a re-analysis of the deposited data

Results flagged for a closer look

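A sample or array that stands apart from the other 3 was looked for in each subunit gene, over the 4 ratios, the 4 wild types and the 4 mutants, by the gap to the nearest value divided by the whole range. Of 132 such sets, which share samples, 4 passed the critical value of 0.829, where chance gives about 5%. The ratio of Uqcrc1, a core protein of complex III, was lowest on array 2 at -0.34, with a gap of 0.866 of the range. The ratio of Atp5e, the epsilon subunit of complex V, was also lowest on array 2, at -0.35, with a gap of 0.867. The ratio of Atp5f1, subunit b of the peripheral stalk, was highest on array 4 at 0.19, with a gap of 0.958. Another kept probe of Atp5f1 did not share this, with -0.077 on array 4 and its highest ratio, 0.22, on array 3. The level of Cox6a1 was highest in mutant 3 among the mutants, at 14.46, with a gap of 0.866.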

How the results depend on the processing

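The count of subunit genes with a genotype change was 0 under each of the 14 alternatives, with 1 at an unadjusted p under 0.05 without replicate 4 and 0 otherwise, and the count with a sex difference was 0 under each of 8. With no replicate block, which ignores the pairs, 3 genes in place of 2 passed over the whole table, 0 of them subunit genes. Among all genes, 267 passed with median centring, 7 in the female pairs alone and 1 with no dye term. In limma 0 passed without replicate 1, 2, 3 or 4 (302 to 1157 genes at an unadjusted p under 0.05), in the male pairs alone (697), with the scanner's ratio (782) or with the authors' table (724). The median of complex II moved to 0.032 with the authors' value table and to -0.078 in the male pairs alone. The Cox8b minus Cox8a difference reversed to -0.10 in the female pairs alone. Leaving out each pair in turn gave -0.063 to 0.18 for that difference, 0.096 to 0.29 for Cox6a2 minus Cox6a1 and 0.092 to 0.36 for Cox7a1 minus Cox7a2. Those isoform values are means of raw differences, in which leaving out a pair leaves the dyes unbalanced. The medians by complex came from fits that kept the dye term. Leaving out each pair gave -0.053 to -0.0059 for complex II and -0.16 to -0.020 for complex III with cytochrome c. It gave -0.055 to 0.032 for complex IV and -0.083 to 0.0023 for complex V. The cause was not tested. Leaving out the members within 20 Mb of Pus1, an alternative chosen after seeing the data, gave -0.016 for complex IV and -0.035 for complex V. With 4 arrays the 95% interval of a subunit gene reached 0.19 to either side at the median, before any adjustment. The adjusted threshold is set on p-values and not on the size of a change, and Cox18 at 0.76 ± 0.11 did not pass it.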
